A study of Mus musculus with 4 samples.

Results

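The genes described here were 5 actin isoforms (Acta1, Actc1, Acta2, Actb and Actg1), 3 tropomyosins (Tpm1, Tpm2 and Tpm4) and 2 transgelins (Tagln and Tagln2). They were taken by symbol from a table of 19353 mouse genes, where each of the 10 had a single row. All 10 passed the filter on low counts and were among the 7228 genes tested. The table held unique molecular identifier (UMI) counts from CEL-Seq2, in which only the 3′ end of a transcript is sequenced, so that a UMI stands for a captured transcript whatever its length. Muscle satellite cells (MuSCs) were sorted by their YFP signal from the plantaris muscle of Pax7-CreERT2:Rosa-YFP mice, 100 cells to a tube. In these mice tamoxifen lets the Pax7-driven Cre switch on YFP permanently, so that YFP marks cells that expressed Pax7 and also cells derived from them. In 2 tubes (sham 1 and sham 2) the cells came from sham-operated plantaris muscle, for which only the skin was cut. In the other 2 (tenotomy 1 and tenotomy 2) they came from plantaris muscle overloaded by severing the gastrocnemius and soleus tendons. Cells were collected 4 days after surgery. Whether each tube of a group was from its own mouse is not given in the sources used here. Sham muscle was the contralateral muscle in other experiments of the study, but this is not stated for these tubes. The p-values therefore measure only the spread between tubes, which may be technical.

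The libraries held 269683 and 260488 UMIs in sham and 387955 and 483528 in tenotomy, or 2697, 2605, 3880 and 4835 UMIs per sorted cell. The chi-square statistic per degree of freedom over genes was 1.31 for the sham pair and 1.50 for the tenotomy pair, against 6.34 to 7.86 for pairs of libraries from different groups. Levels below are in CPM, for which the counts of each library were brought to the same total with TMM (trimmed mean of M-values, which assumes that most genes keep their share of the RNA), and values per tube are unscaled counts. Of the 9 satellite cell markers examined, every member was detected in every library. Pax7, the defining transcription factor, had 118 and 107 UMIs in sham and 108 and 137 in tenotomy. Its level was 514 and 485 CPM in sham and 281 and 277 CPM in tenotomy, and it was called lower under TMM. Under TMM 2 of the 9 were called higher and 5 lower after tenotomy, where 25.8% of all tested genes were called higher and 26.3% lower. Per tube 4 were higher and 2 lower, where 62.0% of all tested genes were higher and 4.58% lower. The list was led by Sdc4, a surface proteoglycan, and summed to 6329 and 5454 CPM in sham and 4540 and 3959 CPM in tenotomy.

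Actin monomers polymerise into filaments, and vertebrates make several nearly identical actins from separate genes. Acta1 is the main actin of adult skeletal sarcomeres. Actc1 is the cardiac form, which developing and regenerating skeletal muscle also makes. Acta2 is the smooth muscle form, and Actb and Actg1 are the cytoplasmic forms found in nearly all cells. Tropomyosins lie along the filament and gate the access of myosin, with Tpm1 and Tpm2 supplying the striated muscle forms through splicing and Tpm4 a mostly cytoskeletal form. Transgelins are small actin-bundling proteins, of which Tagln is a classical smooth muscle marker and Tagln2 a widely expressed relative. Many of these genes are targets of serum response factor (SRF), which binds the CArG box and whose myocardin-related cofactors are held in check by actin monomers.

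Translated from the GENCODE annotation of GRCm38, the actins differed at few positions. Acta1 and Actc1 differed at 4 of 377 residues, as did Actb and Actg1 at 4 of 375, whereas Acta1 and Actb differed at 25 aligned positions. The 3′ ends that CEL-Seq2 reads are less alike. No 40-base word in the last 500 bases of Acta1, Actc1, Acta2, Actg1, Tpm1, Tpm2 or Tpm4 occurred in a transcript of another annotated gene. In Actb 16.5% of these words were shared with annotated genes such as Gm4750 and Gm8464, and in Tagln 15.0% were shared with Pcsk7, which overlaps it on the other strand. In Tagln2 2.60% lay in a repeated sequence. Copies outside annotated transcripts were not examined.

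The genes lie on 8 chromosomes in GRCm38. Acta1 is at chr8:123891769-123894751, Actc1 at chr2:114047282-114053548, Acta2 at chr19:34241090-34255590, Actb at chr5:142903115-142906754 and Actg1 at chr11:120345690-120348542, all on the minus strand. Of the tropomyosins, Tpm1 (chr9:67022590-67049406) and Tpm2 (chr4:43514711-43523765) are on the minus strand and Tpm4 (chr8:72134975-72153142) is on the plus strand. Tagln is at chr9:45929619-45936058 on the minus strand and Tagln2 at chr1:172500047-172507380 on the plus strand. Acta1, Actc1, Tagln and Tpm4 overlap annotated genes on the opposite strand, and Actg1 contains short genes on its own strand. Whether reads were counted by strand is not given in the sources used here, and the values of these genes carry that uncertainty. Pcsk7, the overlapping neighbour of Tagln, had 7, 2, 10 and 30 UMIs in sham 1, sham 2, tenotomy 1 and tenotomy 2.

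RefSeq promoter windows (GRCm38.p6, from 250 bases before the annotated start to 50 after it) were at hand for 8 of the 10 genes, Actb and Tagln being the others. The CArG box was searched only in its strict form, CC and GG around bases that are all A or T. Boxes that depart from this form were not counted. Such a box was found on either strand in 3 of these windows, against 1.63% of all 32851 windows. The 3 boxes are shown because this is the SRF site that the actin genes are known for. Each is given 5′ to 3′ on the minus strand, with the box in capitals.
Acta1, chr8:123894829-123894858: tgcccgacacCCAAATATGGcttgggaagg
Actc1, chr2:114052903-114052932: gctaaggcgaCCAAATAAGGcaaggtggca
Actg1, chr11:120348566-120348595: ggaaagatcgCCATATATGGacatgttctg
The boxes began 73, 47 and 90 bases before the annotated starts of Acta1, Actc1 and Actg1. The motif TATAAA, searched on both strands, was present in the windows of Acta1 and Actc1 and in 13.6% of all windows. It began 7 bases before the annotated start of Acta1, and past the annotated start of Actc1. A match is only a match of letters, and these windows hold genes that were higher after tenotomy (Acta1 and Actc1) and a gene that did not pass the test (Actg1). No box of the strict form was matched in the windows of Acta2, Tpm1 and Tpm2, which were also higher. Looser forms were not searched, so these windows may still hold SRF sites.

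The comparison of the 2 groups asked how overload changed these transcripts. At a Benjamini-Hochberg adjusted p below 0.1 in edgeR's quasi-likelihood test, 5 of the 10 genes (Acta1, Actc1, Acta2, Tpm1 and Tpm2) were higher after tenotomy, 2 (Tagln and Tagln2) were lower, and 3 (Actb, Actg1 and Tpm4) did not pass. Among all tested genes 25.8% were called higher and 26.3% lower, so that the 2 lower genes are close to the background. The median log2 fold change was 0.45 over the 10 genes and 0.05 over all tested genes. Both tenotomy libraries lay above both sham libraries for the 5 higher genes, as for 37.5% of all tested genes. Both lay below for Actg1, Tagln, Tagln2 and Tpm4, as for 35.4%. Only Actb overlapped between the groups.

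In sham the order of mean levels was Actb (2220 ± 320 CPM, SD, n = 2), Tagln2 (787 ± 87.7), Acta2 (497 ± 4.81), Tpm4 (484 ± 17.7), Acta1 (411 ± 158), Tpm1 (302 ± 139), Tagln (171 ± 10.9), Tpm2 (96.5 ± 85.2), Actc1 (92.6 ± 47.6) and Actg1 (57.6 ± 10.9). From Acta2 to Tpm1 each gene overlapped its neighbour in that order, as did Tpm2, Actc1 and Actg1. After tenotomy the order was Actb (2342 ± 740 CPM, SD, n = 2), Acta2 (962 ± 51.4), Tpm1 (816 ± 72.3), Acta1 (735 ± 60.0), Actc1 (660 ± 88.3), Tagln2 (458 ± 61.3), Tpm2 (436 ± 10.2), Tpm4 (435 ± 2.44), Tagln (113 ± 19.9) and Actg1 (46.7 ± 0.159). Tpm1, Acta1 and Actc1 overlapped as neighbours, as did Tagln2, Tpm2 and Tpm4. Actc1 thus moved from near the level of Actg1 to near that of Acta1.

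**Figure D1:**
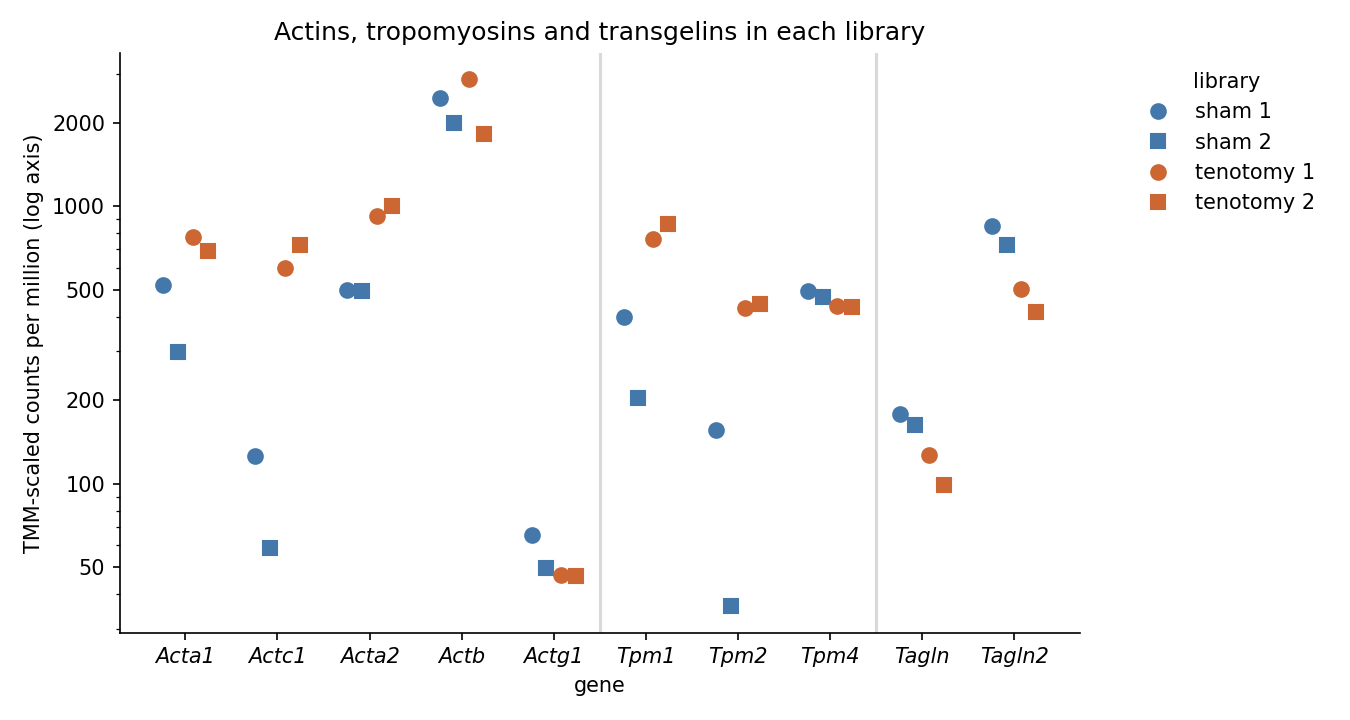
Level of each gene in each library, in TMM-scaled CPM on a log axis. Blue points are sham and orange points tenotomy, circles are replicate 1 and squares replicate 2. Acta1, Actc1, Acta2, Tpm1 and Tpm2 are higher in both tenotomy libraries, and sham 1 lies well above sham 2 for all of these except Acta2.

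Actc1, the cardiac sarcomeric actin, had the largest fitted change of the 10 with all libraries, although without sham 1 Tpm2 was slightly above it. It had 126 and 58.9 CPM in sham (29 and 13 UMIs) and 598 and 723 CPM in tenotomy (230 and 357 UMIs). The lowest tenotomy library was thus far above the highest sham library. It rose by 2.83 ± 0.25 on the log2 scale (SE, n = 2 per group), a 7.09-fold difference with an edgeR adjusted p of 3.6e-07. The log2 value was 3.48 without sham 1, the higher of the sham libraries, and 2.39 without sham 2.

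Acta1, the skeletal sarcomeric actin, had 522 and 299 CPM in sham (120 and 66 UMIs) and 777 and 693 CPM in tenotomy (299 and 342 UMIs). The sham libraries were farther apart than the tenotomy libraries, and the groups did not overlap. The log2 fold change was 0.83 ± 0.20 (SE, n = 2 per group), or 1.78-fold, with an edgeR adjusted p of 0.0033. The call rested on sham 2. Without it the log2 value was 0.49 with an edgeR adjusted p of 0.16, and without sham 1 it was 1.29.

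Acta2, the smooth muscle actin, was the steadiest of the 5 genes that rose. Its levels were 501 and 494 CPM in sham (115 and 109 UMIs) and 926 and 998 CPM in tenotomy (356 and 493 UMIs). The sham libraries were nearly equal, and the tenotomy libraries were close to each other. Acta2 rose by 0.95 ± 0.16 on the log2 scale (SE, n = 2 per group), or 1.94-fold, with an edgeR adjusted p of 1.7e-04. Leaving out any library kept it between 0.90 and 1.02.

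Actb, the beta-cytoplasmic actin, was the most abundant of the 10 genes, and after tenotomy it had the highest UMI total of any gene in the table. It had 2446 and 1993 CPM in sham (562 and 440 UMIs) and 2865 and 1818 CPM in tenotomy (1102 and 898 UMIs). The tenotomy libraries enclosed the sham libraries, tenotomy 1 being the highest and tenotomy 2 the lowest of the 4. The log2 fold change was 0.07 (95% interval -0.35 to 0.49), with an edgeR adjusted p of 0.79. Leaving out tenotomy 1 turned it to -0.28 (edgeR adjusted p 0.0085), and leaving out tenotomy 2 brought it to 0.37 (edgeR adjusted p 2.0e-04), so that its direction was set by which tenotomy library was used. These leave-out fits assume that the lone library varies like those of the other group.

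Actg1, the gamma-cytoplasmic actin, was the least abundant of the 10 genes. It had 65.3 and 49.8 CPM in sham (15 and 11 UMIs) and 46.8 and 46.6 CPM in tenotomy (18 and 23 UMIs). At this depth no difference was detectable, with a log2 fold change of -0.30 whose 95% interval ran from -1.08 to 0.48 and an edgeR adjusted p of 0.53.

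Tpm1, which encodes alpha-tropomyosin, had 400 and 204 CPM in sham (92 and 45 UMIs) and 764 and 867 CPM in tenotomy (294 and 428 UMIs). The log2 fold change was 1.43 ± 0.22 (SE, n = 2 per group), or 2.69-fold, with an edgeR adjusted p of 7.2e-05. Tpm1 is spliced into striated, smooth muscle and cytoskeletal forms, and 3′ counts do not separate them here.

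Tpm2, which encodes beta-tropomyosin, had 157 and 36.2 CPM in sham (36 and 8 UMIs) and 429 and 443 CPM in tenotomy (165 and 219 UMIs). The sham libraries differed 4.32-fold, the widest gap between replicates among the 10 genes, while the tenotomy libraries were nearly equal. The fitted difference was 2.16 ± 0.31 on the log2 scale (SE, n = 2 per group), or 4.46-fold, with an edgeR adjusted p of 3.2e-05. It was 3.58 without sham 1 and 1.48 without sham 2.

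Tpm4, the mostly cytoskeletal tropomyosin, had 496 and 471 CPM in sham (114 and 104 UMIs) and 437 and 433 CPM in tenotomy (168 and 214 UMIs). Its log2 fold change of -0.15 (95% interval -0.49 to 0.19) did not pass, with an edgeR adjusted p of 0.46. Of its relatives outside the 10 genes, Tpm3 had 166 and 172 UMIs in sham and 185 and 239 in tenotomy, and under TMM it fell by 0.64 on the log2 scale with an edgeR adjusted p of 0.0034, whereas its log2 value was 0.33 per tube and 0.23 with abundance offsets. In Tpm3 63.1% of the 3′ words were shared with its annotated copy Tpm3-rs7, so that its count is uncertain. Actg2 and Tagln3, the remaining relatives considered, were not analysed here.

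Tagln2, the widely expressed transgelin, had 849 and 725 CPM in sham (195 and 160 UMIs) and 502 and 415 CPM in tenotomy (193 and 205 UMIs). Its UMI number was thus alike in all 4 tubes while its share of the library was smaller in tenotomy. The log2 fold change under TMM was -0.79 ± 0.17 (SE, n = 2 per group), with an edgeR adjusted p of 0.0012, and it was 0.16 per tube and 0.08 with abundance offsets, on the other side of 0.

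Tagln, also known as SM22-alpha, had 178 and 163 CPM in sham (41 and 36 UMIs) and 127 and 99.2 CPM in tenotomy (49 and 49 UMIs). The log2 fold change under TMM was -0.61 ± 0.24 (SE, n = 2 per group), with an edgeR adjusted p of 0.045. This was the least certain call. Without sham 1 the log2 value was -0.54 (edgeR adjusted p 0.17) and without tenotomy 2 it was -0.42 (edgeR adjusted p 0.28). DESeq2 gave -0.59 with an adjusted p of 0.29, and per tube the log2 value was 0.35.

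The scaling mattered most for the genes that were lower or did not pass, and the tenotomy tubes held more UMIs from the same number of sorted cells. Counted per tube, with no scaling, the median log2 fold change of all tested genes was 1.01, with 62.0% of genes called higher and 4.58% called lower. On that scale 7 of the 10 genes were called higher (the 5 above, Actb at 1.0 and Tpm4 at 0.81) and none lower by edgeR's test, all 10 log2 values being above 0. Relative to that shift of all genes, Actb and Tpm4 were at or below the median, and Tagln at 0.35 and Tagln2 at 0.16 were well below it. In these tubes of sorted cells, fewer cells of a type, less RNA per cell and a difference in capture or sequencing depth cannot be told apart.

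Abundance offsets, which centre the fold changes of genes of like abundance, gave 23.6% of genes higher and 23.0% lower and placed Actb at 1.40 and Tpm4 at 0.57, both called higher. With library sizes alone the median of all genes was 0.33, Actb was at 0.34 with an edgeR adjusted p of 0.10, just outside the threshold, and Tagln was no longer called. Actc1, Tpm2, Tpm1, Acta2 and Acta1 were called higher under each of these scalings, with log2 values that ranged upward from the TMM values of 2.83, 2.16, 1.43, 0.95 and 0.83 to 3.80, 3.12, 2.40, 1.92 and 1.78 per tube.

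**Figure D2:**
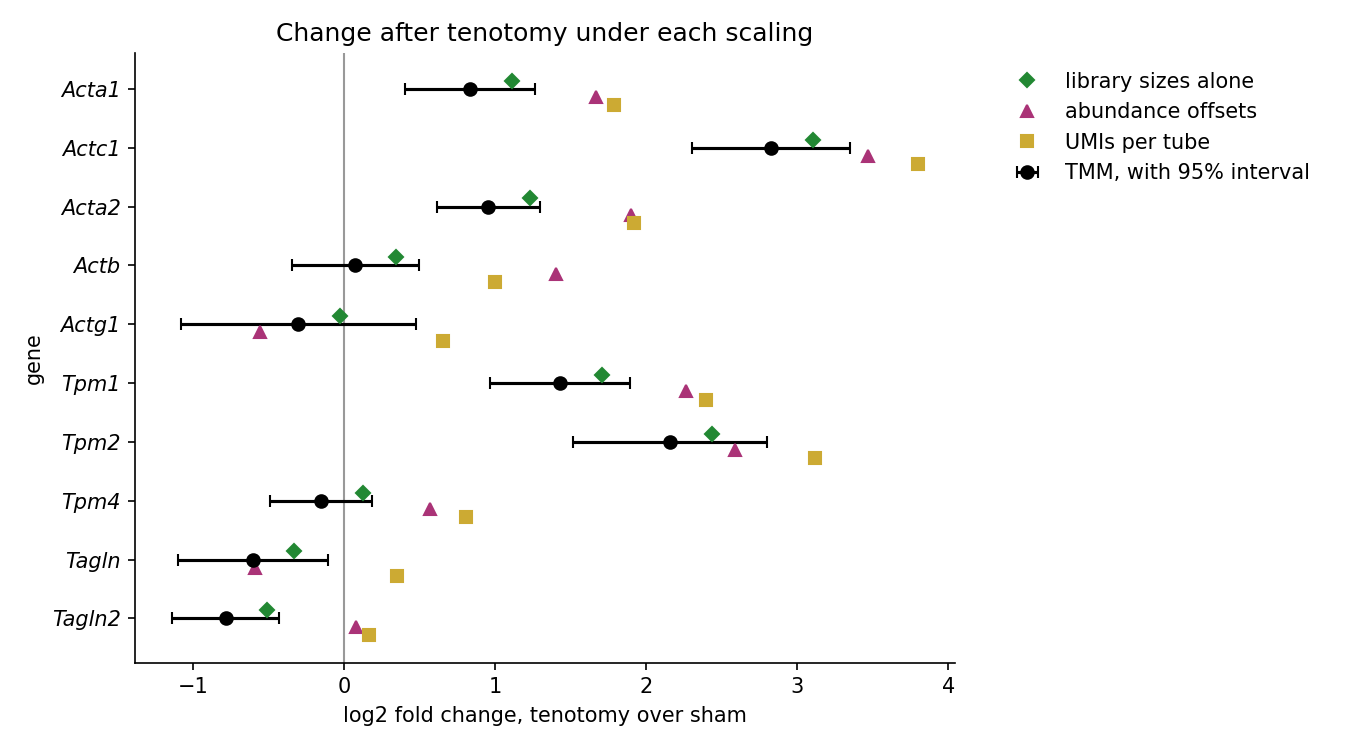
Log2 fold change of tenotomy over sham for each gene. Black points are the TMM values with their 95% intervals, and coloured points the values with library sizes alone, with abundance offsets and per tube. Acta1, Actc1, Acta2, Tpm1 and Tpm2 stay to the right of 0 throughout, whereas Tagln2 changes side with abundance offsets and per tube, Tpm4 with all 3 other scalings, and Tagln and Actg1 per tube.

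Shares within a library do not depend on the scaling, and were used to follow the mix of actins. The 5 actins made up 0.312% and 0.245% of all UMIs in sham and 0.517% and 0.437% in tenotomy. The sarcomeric actins Acta1 and Actc1 together supplied 17.7% and 12.4% of actin UMIs in sham 1 and sham 2 (149 of 841 and 79 of 639) and 26.4% and 33.1% in tenotomy 1 and tenotomy 2 (529 of 2005 and 699 of 2113). The exact Clopper-Pearson 95% intervals, which cover counting error only, were 15.2% to 20.5%, 9.91% to 15.2%, 24.5% to 28.4% and 31.1% to 35.1%. The group means were 15.0% ± 3.79 and 29.7% ± 4.74 (SD, n = 2 each), a difference of 14.7 percentage points with no overlap. An exact two-sided permutation test of 2 against 2 libraries cannot go below p = 0.333, which is the value obtained for this share and for each share below.

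Most of this difference lay in Actc1, whose share of actin UMIs went from 3.45% and 2.03% in sham to 11.5% and 16.9% in tenotomy, whereas that of Acta1 went from 14.3% and 10.3% to 14.9% and 16.2%. For Acta1 the sham 1 value lay within the interval of tenotomy 1 (13.4% to 16.5%). Among sarcomeric actin UMIs alone, Actc1 supplied 19.5% and 16.5% in sham and 43.5% and 51.1% in tenotomy.

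The smooth muscle form Acta2 supplied 13.7% and 17.1% of actin UMIs in sham and 17.8% and 23.3% in tenotomy. Its means of 15.4% ± 2.39 and 20.5% ± 3.94 (SD, n = 2 each) differed by 5.18 percentage points, and the nearest libraries, sham 2 and tenotomy 1, were within each other's counting intervals. The cytoplasmic forms together went from 68.6% and 70.6% in sham to 55.9% and 43.6% in tenotomy, a difference in means of -19.9 percentage points without overlap. Nearly all of this was Actb, since Actg1 supplied 1.78% and 1.72% of actin UMIs in sham and 0.898% and 1.09% in tenotomy.

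Of the UMIs of Tpm1, Tpm2 and Tpm4, the last supplied 47.1% and 66.2% in sham and 26.8% and 24.9% in tenotomy. Tpm1 went from 38.0% and 28.7% to 46.9% and 49.7%, and Tpm2 from 14.9% and 5.10% to 26.3% and 25.4%. The tenotomy libraries were within 3 points of each other for each tropomyosin, while the sham libraries were farther apart, sham 1 holding larger shares of Tpm1 and Tpm2.

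**Figure D3:**
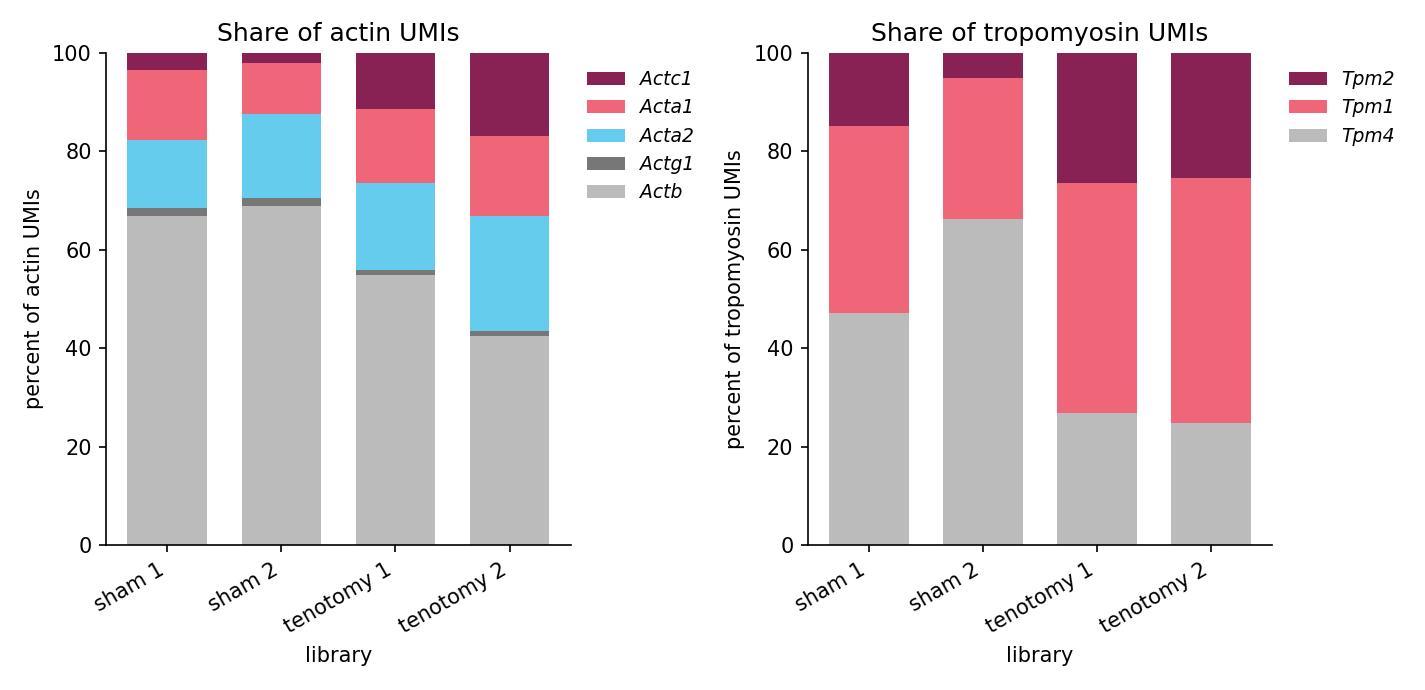
Percent of actin UMIs (left, 5 genes) and of the UMIs of Tpm1, Tpm2 and Tpm4 (right) that each gene supplied in each library. The Actb and Tpm4 blocks are smaller in both tenotomy libraries than in either sham library, and the Actc1 and Tpm2 blocks are larger.

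Markers of other cells and stages were measured in the same libraries, since several of the 10 genes are also made by muscle fibres and vessel walls. Of 8 markers of differentiating myocytes 7 were tested and called higher after tenotomy. All of these but Myog passed the filter on low counts only through tenotomy, so that their calls are no evidence of their own. Tnnt2, Tnnc1, Mymx and Myh3 had at most 4 UMIs in a sham library. In sham Mef2c had 9 and 2 UMIs and Mymk 20 and 7. The summed level of the list was 353 and 281 CPM in sham and 2088 and 2169 CPM in tenotomy, and the most abundant was Myog, a transcription factor of muscle differentiation, with 52 and 49 UMIs in sham and 246 and 282 in tenotomy. Tnnt2, Tnnc1, Mymx and Myh8 had no UMI in either sham library. All 7 tested of 10 measured markers of mature myofibres were called higher as well, with summed levels of 1471 and 734 CPM in sham and 2974 and 2760 CPM in tenotomy. Their most abundant gene was Tnnt3, fast troponin T, with 76 and 45 UMIs in sham and 225 and 318 in tenotomy. Of this list Myh4, with 10 and 5 UMIs in sham, and Eno3, with 24 and 7, also passed the filter only through tenotomy. Their calls are likewise no evidence of their own. Myh1 and Myh2, adult fast myosins, had no UMI in sham and 0 and 2 each in tenotomy. Neither list lost a call without sham 1, with the same limit for every gene tested only through tenotomy.

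Sham 1 exceeded sham 2 in CPM by 2.0-fold for the summed mature myofibre markers and by 1.26-fold for the differentiation markers, and also by 1.75-fold for mural, 1.35-fold for endothelial and 1.16-fold for satellite cell markers. The same ratio was 1.75 for Acta1, 2.14 for Actc1, 1.96 for Tpm1 and 4.32 for Tpm2, 1.31 for Actg1, 1.23 for Actb, 1.17 for Tagln2, 1.09 for Tagln, 1.05 for Tpm4 and 1.01 for Acta2. All 10 were thus above 1, the 4 largest being those of Acta1, Actc1, Tpm1 and Tpm2. The part of myofibre RNA in the levels of Acta1, Actc1, Tpm1 and Tpm2 was not tested. Without sham 1, the 5 higher genes were still called and Tagln2 was the only lower call.

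For Acta2 and Tagln, which mural cells of vessels make in quantity, the mural markers were measured too. The 10 mural markers summed to 183 and 104 CPM in sham and 221 and 367 CPM in tenotomy. This was below the level of Acta2 in each library, and above that of Tagln in all but sham 2. Neither comparison bounds the mural part of Acta2 or Tagln. Rgs5 was the most abundant mural marker (13 and 4 UMIs in sham, 38 and 86 in tenotomy). It was the only 1 of 3 tested that was called higher. Its log2 fold change was 1.88 with an edgeR adjusted p of 0.0016, and 2.92 without sham 1. Rgs5 passed the filter on low counts only through tenotomy, so that its call is no evidence of its own. Myh11, the smooth muscle myosin, had 0 UMIs in 3 libraries and 3 in tenotomy 2. Higd1b and Ndufa4l2 also had none in sham. The sort for YFP of the Pax7 lineage should remove mural cells, and the part of mural RNA in Acta2 and Tagln was not tested.

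Leukocyte markers were near 0 in sham, with 8.71 and 27.2 CPM summed over 10 genes in sham and 195 and 383 CPM in tenotomy. The most abundant was Lyz2, lysozyme of macrophages and granulocytes, with no UMI in sham and 17 and 38 in tenotomy. Cd74, Csf1r, Tyrobp, C1qa, C1qb and Fcer1g likewise had none in sham. Lyz2 and Cd74 passed the filter on low counts only through tenotomy, so that their calls are no evidence of their own. Leukocytes, too, should be removed by the sort, and the part of their RNA in Actb, which they make in quantity, was not tested. Endothelial markers summed to 122 and 90.6 CPM in sham and 109 and 124 CPM in tenotomy, with 1 of 2 tested called lower under TMM. They were led by Tek with 10 and 12 UMIs in sham and 5 and 11 in tenotomy, and Cldn5 had none in sham. Tek, the gene called lower, passed the filter only through sham, so that its call is no evidence of its own. Fibro-adipogenic markers summed to 4126 and 3964 CPM in sham and 3307 and 2878 CPM in tenotomy and were led by the collagen gene Col3a1 with 508, 461, 618 and 683 UMIs. Of 6 tested, 2 were called higher and 3 lower under TMM, against 4 and 1 with abundance offsets, 5 and 1 per tube and 2 and 1 without sham 1. Col3a1 itself was at -0.53 under TMM and at 0.75 with abundance offsets, and without sham 1 it was at -0.48 and no longer called (edgeR adjusted p 0.22). The 2 called higher were Ly6a, with 1 and 0 UMIs in sham and 22 and 41 in tenotomy, and Thy1, with 8 and 8 in sham and 51 and 62 in tenotomy. Ly6a and Thy1 also passed the filter only through tenotomy, so that their calls are no evidence of their own. Pdgfra, which defines these cells, had none in sham and 2 and 0 in tenotomy.

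**Figure D4:**
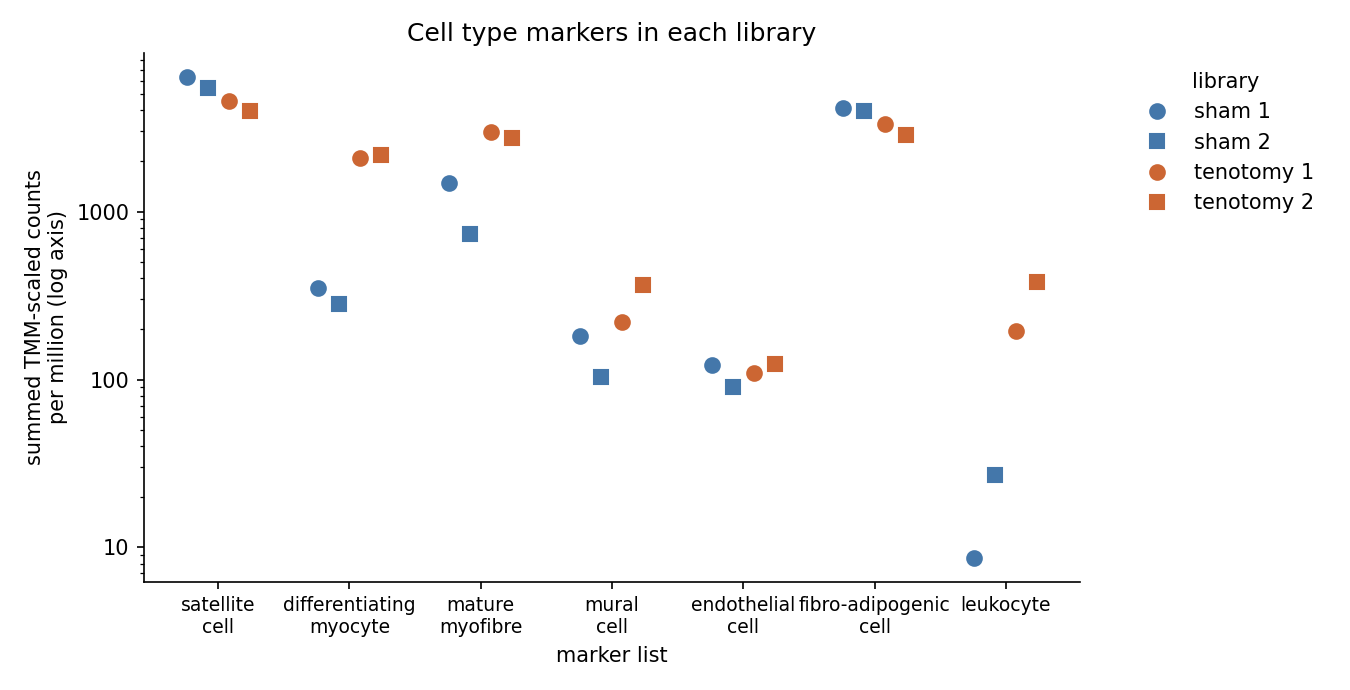
Summed level of each marker list in each library, in TMM-scaled CPM on a log axis, with blue for sham, orange for tenotomy, circles for replicate 1 and squares for replicate 2. Differentiating myocyte, mature myofibre, mural and leukocyte markers are higher in both tenotomy libraries, and sham 1 has more mature myofibre marker UMIs than sham 2.

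The rest of the actin cytoskeleton was read from 8 gene lists that together held 109 genes other than the 10. Of 80 that were tested, 29 (36.2%) were called higher and 20 (25.0%) lower, against 25.8% and 26.3% of all tested genes, so that the lower share is close to the background. The higher share includes genes, named with their lists below, that passed the filter on low counts only through tenotomy. Their calls are no evidence of their own. The share over all tested genes includes such genes as well. The median log2 fold change was 0.09 against 0.05 for all tested genes. The split depended on the scaling. With library sizes alone 35 were higher and 13 lower (all tested genes 37.3% and 18.7%), with abundance offsets 37 and 9 (23.6% and 23.0%), and per tube 60 and 2 (62.0% and 4.58%). Without sham 1 fewer were called in either direction, as was also so over all tested genes. Direction calls below are under TMM.

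Of 12 tested genes of monomer binding and filament turnover, 7 were higher and 2 lower, with a median log2 fold change of 1.08. The counts were 8 and 0 with library sizes alone and with abundance offsets, and 10 and 0 per tube. Of the higher genes, Pfn1, Cap2, Pfn2 and Ssh1 passed the filter on low counts only through tenotomy. Their calls are no evidence of their own, and the median of 1.08 includes them. Tmsb10, a thymosin that sequesters monomers, had 29 and 25 UMIs in sham and 129 and 134 in tenotomy, and rose by 1.33 on the log2 scale (edgeR adjusted p 1.3e-04). Cap2, a cyclase-associated protein of striated muscle that recycles monomers, had 7 and 12 UMIs in sham and 54 and 71 in tenotomy. Its log2 fold change was 1.74 (edgeR adjusted p 3.7e-04), with the limit just given for genes tested only through tenotomy. The 2 lower genes, Dstn, a filament-severing relative of cofilin, and Ssh2, a phosphatase that activates cofilin, were at -0.58 and -0.59, and both were above 0 per tube, at 0.38 and 0.38.

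Branched filaments are nucleated by the Arp2/3 complex, of whose 15 tested subunits and activators 5 were higher and 3 lower under TMM, against 3 and 2 without sham 1 and 12 and 1 per tube. The core subunit Actr2 had 43 and 32 UMIs in sham and 124 and 149 in tenotomy, a log2 fold change of 0.90, and Cyfip1, of the WAVE regulatory complex, was at 0.82. Another core subunit, Arpc3, went the other way, with 39 and 49 UMIs in sham and 26 and 26 in tenotomy, a log2 fold change of -1.71 (edgeR adjusted p 7.9e-05) that was also below 0 per tube, at -0.76. Wasl, which encodes the activator N-WASP, was at -0.95 under TMM and at 0.00 per tube. Actr2 and Arpc3 thus moved in opposite directions, but they were named for having the largest changes of the list. Under TMM 7 of the 15 genes were not called.

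Among 9 tested formins and other nucleators, 3 were higher and 3 lower under TMM, and 5 were higher per tube. The higher genes Diaph3 and Fhod1 passed the filter on low counts only through tenotomy, so that their calls are no evidence of their own. Cobl, a nucleator that joins several monomers, was at 0.72 (edgeR adjusted p 0.069, and 0.14 with abundance offsets). Spire1, a nucleator of the same kind, and the formin Diaph2 were at -0.92 and -0.89 under TMM and at 0.05 and 0.06 per tube, and Diaph2 lost its call without sham 1 (edgeR adjusted p 0.19). Of 7 tested capping, severing and tropomodulin genes, 4 were higher and 1 lower under TMM, and 6 were higher per tube. Svil and Lmod3, among the higher genes, passed the filter on low counts only through tenotomy, so that their calls are no evidence of their own. Svil, which encodes supervillin, had 8 and 2 UMIs in sham and 54 and 81 in tenotomy, a log2 fold change of 2.77 (edgeR adjusted p 3.9e-05) that was 4.03 without sham 1, and the capping protein gene Capg was at 0.98, a call lost without sham 1 (log2 value 0.65, edgeR adjusted p 0.19). Gsn, encoding the severing protein gelsolin, was the most abundant of that list with 304 and 269 UMIs in sham and 214 and 312 in tenotomy, a log2 fold change of -1.09 under TMM that was near 0 with abundance offsets, at -0.06.

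Of 13 tested filament crosslinkers, 4 were higher and 4 lower under TMM, shares near those of all genes. The counts were 5 and 1 with abundance offsets and 10 and 1 per tube. Actn2, among the higher genes, passed the filter on low counts only through tenotomy, so that its call is no evidence of its own. Actn3, the fast-fibre alpha-actinin of the Z-disc, was at 0.80 and Fscn1, the bundling protein fascin, at 0.68. Flnc, the muscle filamin, fell from 146 and 147 UMIs in sham to 88 and 95 in tenotomy. Its log2 fold change was -1.63 (edgeR adjusted p 1.5e-06), and it stayed below 0 per tube, at -0.68, and with abundance offsets, at -0.96. Actn4, a nonmuscle alpha-actinin, was at -0.68 under TMM but at 0.27 per tube.

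Of 15 tested smooth muscle and nonmuscle contractile partners, 5 were higher and 6 lower under TMM, with a median of -0.30. The counts were 8 and 3 with abundance offsets, and 10 were higher per tube. Of the higher genes, Cnn2, Synpo2 and Myl9 passed the filter on low counts only through tenotomy. The lower genes Mylk and Myl12b passed it only through sham. The calls of all of these are no evidence of their own. Smtn (smoothelin) was at 0.95 with 22 and 17 UMIs in sham and 46 and 103 in tenotomy, and Myl6, a myosin light chain, was at 0.61 with an edgeR adjusted p of 0.088, a call lost with abundance offsets (0.16) and without sham 1 (0.34). The kinase genes Rock1 and Rock2, which drive nonmuscle myosin, were at -0.94 and -0.71 under TMM and at 0.02 and 0.24 per tube. Of 8 tested genes of SRF, its cofactors and adhesion targets, 1 was higher and none lower by edgeR, DESeq2 and limma-voom on scalings that centre most genes, where 25.8% of all genes were higher by edgeR, and none was lower at an unadjusted p under 0.05. The number higher by edgeR was 4 with library sizes alone, 3 with abundance offsets, 7 per tube and 2 without sham 1. The gene called under TMM was Tln1, encoding the adhesion protein talin, at 0.77. Srf itself, named here after its values were seen, had 20 and 19 UMIs in sham and 32 and 44 in tenotomy and a log2 fold change of -0.0028 (95% interval -0.62 to 0.62).

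**Figure D5:**
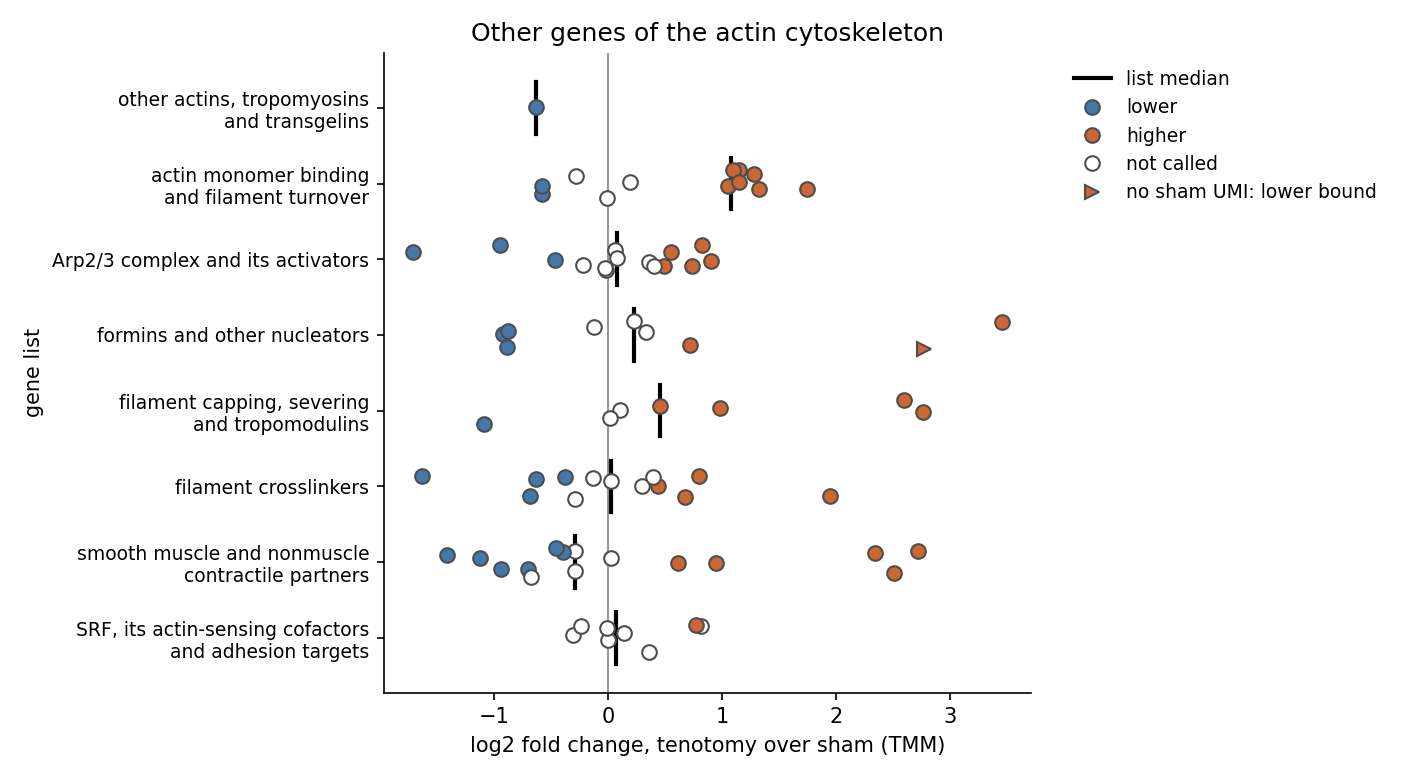
Log2 fold change under TMM of each tested gene in the 8 lists, with a vertical stroke at each list's median. Orange points were called higher, blue points lower and white points neither, and the arrowhead is a gene without a sham UMI drawn at its lower bound. The median of monomer binding and filament turnover lies at 1.08, and those of the other lists of more than 1 gene between -0.30 and 0.46. The value of 1.08 includes Pfn1, Cap2, Pfn2 and Ssh1, which passed the filter on low counts only through tenotomy. Which points lie left of 0 depends on the scaling.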

How the data were processed

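The deposited values were UMI counts per gene, which the authors made with UMI-tools 1.0.0, HISAT2 2.1.0 on GRCm38 and featureCounts 1.6.4, per the labels, from CEL-Seq2 reads with 6-base UMIs. The strand setting and annotation release are not given in the sources used here. The 10 genes and the other gene lists were chosen with earlier results of these data known. Genes passing filterByExpr (7228 of 19353) were scaled by TMM and fitted by edgeR 4.0.16 quasi-likelihood over all 4 libraries, with group as the only term and Benjamini-Hochberg adjustment at 0.1. DESeq2 1.42.0 and limma 3.58.1 (voom) were alternatives. Replicate numbers were not used as a block. Outside the 10 genes, the text names Tpm3 and, from each list, the 2 largest called rises and falls with a mean of at least 20 counts and no overlap in CPM, and of each marker list the most abundant gene and genes without counts. Beside these, Pax7, Pcsk7, Srf, Ly6a and Thy1, Myh1 and Myh2, and the other marker genes with counts of 0 in some libraries were named after their values were seen. A simulation of this comparison over 6956 genes changed 83 of them 2-fold and 87 of them 4-fold. It recovered 54.2% of the 2-fold and 94.3% of the 4-fold changes, and 7.3% of its calls were false. Far fewer genes were changed in it than were called in the data, so these shares may not hold for the data. Figures used matplotlib 3.10.9, and shares and permutation tests SciPy 1.17.1.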

Additional observations from a re-analysis of the deposited data

How the results depend on the processing

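Over the 10 genes and 15 alternatives (150 values), 132 kept their direction and their side of the threshold. The genes called higher numbered 4 to 6 and those called lower 1 to 3 when each library was left out, against 5 and 2. The lower calls numbered 1 with library sizes alone, with abundance offsets, with DESeq2 and without the filter, and 0 per tube. Over all genes 1868 were higher and 1898 lower, against 4481 and 331 per tube and 967 and 1215 by DESeq2, and the cause of the last was not tested. The direction turned per tube for Actg1 (0.65), Tagln (0.35), Tagln2 (0.16) and Tpm4 (0.81), with abundance offsets for Tagln2 (0.080) and Tpm4 (0.57), with library sizes alone for Tpm4 (0.12), and for Actb over a leave-out range of -0.28 to 0.37, including -0.07 without sham 2. The differences in the sarcomeric and smooth muscle shares stayed above 0, at 11.3 to 18.0 and 2.39 to 7.97 points with each library left out and at 10.4 and 3.98 points with all 10 genes as the denominator. The highest count was 1102, and 6-base UMIs repeat by chance at such counts. Correcting for shared tags left the members' calls at 5 and 2 and the sarcomeric difference at 13.8 points. Leaving Actg1 out of the actins, an alternative chosen after seeing the data, gave 14.7 and 5.11 points.

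With the replicate number as a block, 5 of the 10 genes were higher and 2 lower, and 1806 and 1864 of all genes. The deviations of sham 1 and tenotomy 1 from their group means had a correlation of -0.03 over 7228 genes. This does not show whether tubes of equal number came from the same mouse. With 2 libraries per group and counts as low as 8, small differences in Actg1, Tagln and Tpm2 could not be resolved.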
